A study of Homo sapiens with 6 samples.

Results

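The genes described here are the 5 thrombospondins (THBS1 to THBS4 and COMP), the thrombospondin receptor CD47, and 4 genes named for the thrombospondin domain they encode (THSD1, THSD4, THSD7A and THSD7B). They are 10 of the 27734 genes matched in the table, each represented by its RefSeq accession with the highest base mean, which is the mean over all libraries of reads divided by library size factors. The study sequenced RNA of U87 cells, a widely used human glioblastoma line, in 6 libraries. In 3 libraries the cells are labelled EGFR+vIII, with EGFR the epidermal growth factor receptor and vIII its constitutively active deletion mutant, and the other 3 are labelled EGFR+vIII TLR2 KO. EGFR and vIII are therefore shared by both groups, and the groups differ by the knockout of TLR2, a cell surface receptor of innate immunity. The labels do not say how EGFR or vIII was introduced, how TLR2 was knocked out, whether the knockout is 1 clone, or whether libraries came from separate cultures. The deposited p-values may therefore reflect technical spread only.

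Thrombospondins are large secreted glycoproteins of the extracellular matrix that bind cell surface receptors, growth factors, proteases and collagens. THBS1 and THBS2 form trimers, carry the type 1 repeats that bind the scavenger receptor CD36, and are known as inhibitors of angiogenesis. THBS1 also activates latent TGF-beta and is a ligand of CD47, the membrane protein that tells phagocytes through SIRPA to spare a cell. THBS3, THBS4 and COMP form pentamers without type 1 repeats. The THSD genes encode other proteins with type 1 repeats.

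All values are from 1 table of the authors' own DESeq2 comparison, which has no column per library. The table names the knockout first, so its fold changes are taken here to be those of the knockout relative to EGFR+vIII. The targeted gene gives no check of this direction, since the authors' deposited table lists all 8 accessions of TLR2 at 0. If the order is the opposite, every direction below reverses. The base means sum to 11240272 normalized reads per library, and the size factors of the 6 libraries, recovered from the smallest base means, lie between 0.928 and 1.07.

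THBS1, THBS2, THSD4 and THSD7A fell in the knockout and THSD7B rose, by the deposited adjusted p (under 0.05) of the authors' deposited table. CD47 was tested and did not pass. THBS3 and THBS4 have reads but no adjusted p, and COMP and THSD1 are listed at 0. The 5 calls among 6 tested genes stand beside 23.5% of all 10303 tested accessions called in the authors' deposited table, 11.6% higher and 11.9% lower. The genes were chosen by family name, with the fold changes and adjusted p-values of this comparison in view, and each accession was selected on its base mean, so this count is a description and nothing is read from it. The median log2 fold change of the 6 tested genes is -1.03, against 0.02 over all tested accessions of the authors' deposited table. In a test for a change of more than 1.5-fold, 3 of the 6 were called, beside 3.96% of all tested accessions in the authors' deposited table.

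**Figure D1:**
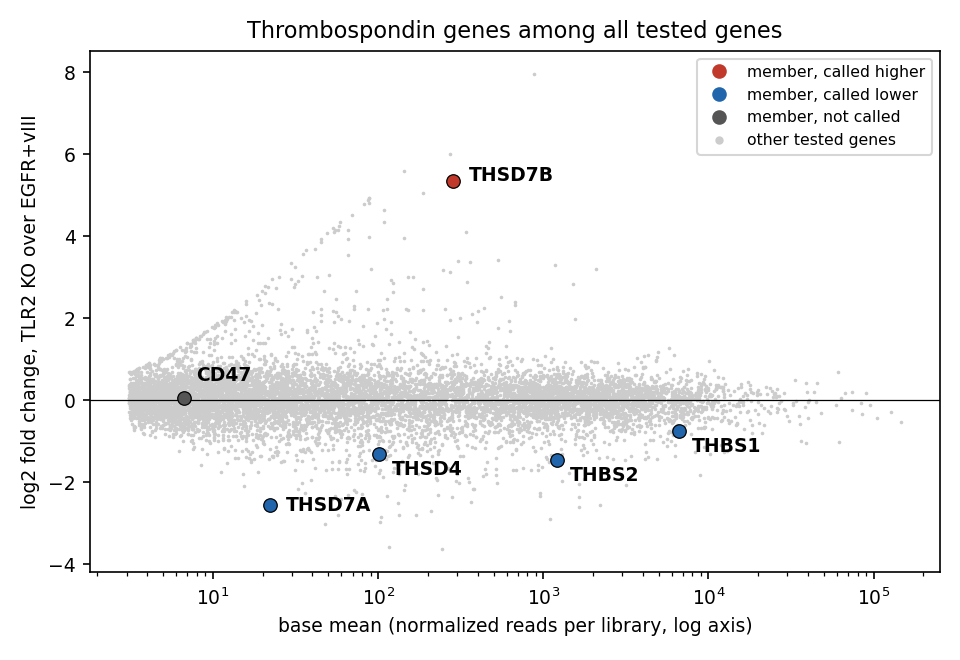
Base mean (normalized reads per library, log axis) against log2 fold change (TLR2 KO over EGFR+vIII) of all tested genes, with the 6 tested thrombospondin genes in colour. THSD7B sits near the top of the plot at 5.34, THSD7A is the lowest of the 6 at -2.56, and CD47 lies at 0.05.

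THBS1 (NM_003246, chromosome 15, 39581079 to 39599466) is the gene of this set with the most reads. It has a base mean of 6623 in the authors' deposited table, which is 852 normalized reads per kilobase of its paired transcript and above 89.4% of tested accessions. THBS1 fell by 0.75 on the log2 scale (SE 0.07, adjusted p = 3.74e-26) by the authors' deposited table. Together with the base mean, this fold change implies about 8304 normalized reads in an EGFR+vIII library and 4941 in a knockout library, a 1.68-fold difference. No value per library stands in the table for THBS1, so whether the groups overlap cannot be seen.

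THBS2 (NM_003247, chromosome 6, 169215785 to 169253846), the closest relative of THBS1, has a base mean of 1216 in the authors' deposited table. Per kilobase of transcript this is 209 normalized reads, 4.07 times less than for THBS1. THBS2 fell by 1.45 on the log2 scale (SE 0.10, adjusted p = 1.6e-49) by the authors' deposited table. The implied levels are 1782 normalized reads in an EGFR+vIII library and 651 in a knockout library, or 307 and 112 per kilobase. The fall of THBS1 is thus smaller on the log2 scale than that of THBS2, and the 95% intervals of the deposited fold changes (-0.88 to -0.62 and -1.64 to -1.26) do not overlap. Even in the knockout, the implied level of THBS1 per kilobase (636) is above that of THBS2 in either group. The call of THBS1 is lost in a test for a change of more than 1.5-fold (adjusted p = 0.312), and that of THBS2 is kept (1.69e-17).

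The 250 bases before the RefSeq start of 4 of the called genes are printed here, 3 that fell and the 1 that rose, to show where the motifs lie in them. They are from the RefSeq sequence of GRCh38.p14, 5′ to 3′ on the strand of the gene. Capitals mark every match, on either strand, to 10 short motifs.
THBS1 chr15:39580829-39581078 (plus strand): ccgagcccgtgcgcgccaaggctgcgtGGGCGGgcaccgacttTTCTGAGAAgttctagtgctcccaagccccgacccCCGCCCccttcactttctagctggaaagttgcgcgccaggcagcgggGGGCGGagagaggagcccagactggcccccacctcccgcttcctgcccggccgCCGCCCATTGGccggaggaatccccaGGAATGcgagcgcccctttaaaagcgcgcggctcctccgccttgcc
THBS2 chr6:169253847-169254096 (minus strand): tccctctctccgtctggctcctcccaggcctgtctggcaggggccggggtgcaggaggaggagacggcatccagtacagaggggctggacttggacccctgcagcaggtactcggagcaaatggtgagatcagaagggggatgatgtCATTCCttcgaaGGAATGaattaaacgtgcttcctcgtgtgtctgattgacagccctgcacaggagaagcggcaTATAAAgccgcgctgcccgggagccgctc
THSD4 chr15:71096644-71096893 (plus strand): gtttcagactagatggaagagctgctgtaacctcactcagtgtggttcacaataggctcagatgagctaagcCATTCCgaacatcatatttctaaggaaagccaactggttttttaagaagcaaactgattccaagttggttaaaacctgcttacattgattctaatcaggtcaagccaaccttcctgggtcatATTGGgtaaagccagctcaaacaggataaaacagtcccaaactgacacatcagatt
THSD7B chr2:136765295-136765544 (plus strand): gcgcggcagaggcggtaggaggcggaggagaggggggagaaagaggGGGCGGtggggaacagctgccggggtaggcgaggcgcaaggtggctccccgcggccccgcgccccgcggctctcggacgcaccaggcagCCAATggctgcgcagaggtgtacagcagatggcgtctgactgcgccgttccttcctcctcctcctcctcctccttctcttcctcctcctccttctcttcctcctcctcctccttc
The TATA box was searched as TATAAA, the CCAAT box as those letters, the GC box of SP1 as GGGCGG and the AP-1 site as TGANTCA. The CRE was searched as TGACGTCA, the TEAD site as GGAATG, the E-box as CACGTG and the STAT site as TTCNNNGAA, with, by name alone, the ISRE and the NF-kB consensus. The TEAD letters are in the windows of THBS1, THBS2 and THSD4, which fell, and also in that of COMP, listed at 0, but not in that of THSD7A, which fell too. They begin 46 bases before the start in THBS1, at 103 (in reverse) and 91 bases in THBS2, and at 178 bases, in reverse, in THSD4. Of 35116 windows of the same length, 11.9% hold these letters. THBS2 has a TATA box 29 bases before its start, which 10.7% of windows have. THBS1 has 4 GC boxes, a STAT match 207 bases before the start, and a reversed CCAAT adjoining its GC box at 72 bases, and its GC content is 69.6%. Of all windows, 42.6% hold a GC box, 32.0% a CCAAT and 6.57% a STAT match. The median GC content of all windows is 58.0%, with an upper quartile of 68.0%. The window of THSD7B has 1 GC box and 1 CCAAT and no TEAD letters, and a GC content of 69.2%. The window of THSD7A, not printed, holds none of the 10 motifs. A match here is a match of letters and not a measured binding site. THSD4 has 3 listed starts, and the window shown is the one next to the start of the counted accession.

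THSD4 (NM_024817, chromosome 15, 71096894 to 71783383) encodes a matrix protein of the ADAMTS-like family that binds fibrillin. Its base mean is 102 and it fell by 1.31 on the log2 scale (SE 0.25, adjusted p = 1.96e-06) by the authors' deposited table. The implied levels are 145 normalized reads in an EGFR+vIII library and 58.6 in a knockout library. THSD4 has a second accession, which is at 0. By the paired GENCODE transcripts, the counted accession has 6043 of 9200 exon bases (65.7%) to itself, and the one at 0 has 246 of 3403. The call is lost in a test for a change of more than 1.5-fold (adjusted p = 0.0887).

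THSD7A (NM_015204, chromosome 7, 11370365 to 11832198) encodes a membrane protein with type 1 repeats that is known in endothelial cells and kidney podocytes. It fell by 2.56 on the log2 scale (SE 0.38, adjusted p = 2.15e-10), the fall of greatest size among these genes, and ranks 13th from the bottom of 10303 tested accessions in the authors' deposited table. The base mean of THSD7A, 22.1, is small enough to recover the whole reads behind it. In the split used here, EGFR+vIII libraries held 37, 46 and 52 reads and knockout libraries held 1, 0 and 2, and the groups do not overlap. Divided by size factors, the means are 43.1 ± 8.07 (SD, n = 3) and 1.04 ± 1.08 (SD, n = 3) reads. This split is 1 of 29 whole-number solutions of the base mean. It was chosen as the only one of them whose ratio is at least as large as the deposited fold change, which was drawn towards 0, so the reads are no independent support for that fold change or its direction. The ratio of these reads is 41.6-fold (95% exact Clopper-Pearson interval 13.9 to 204, counting error only), or -5.38 on the log2 scale. The deposited fold change itself is 5.90-fold.

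**Figure D2:**
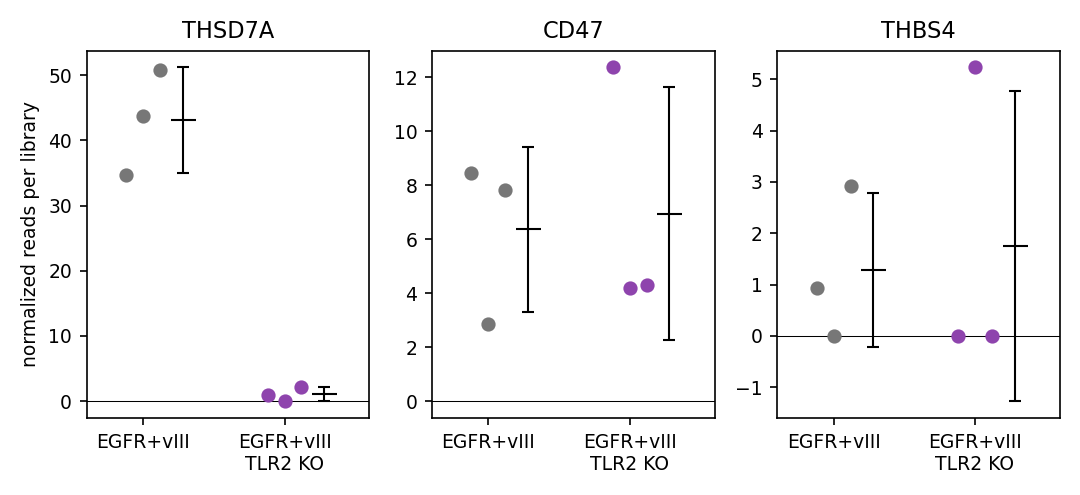
Reads divided by size factor in each library (points) for THSD7A, CD47 and THBS4, recovered from the base means, with the mean and SD of 3 libraries per group as black bars. The split shown for THSD7A is 1 of 29 whole-number solutions of its base mean, chosen with the deposited fold change. In that split, THSD7A is between 34.7 and 50.8 in EGFR+vIII and at most 2.16 in the knockout. The points of CD47 and THBS4 overlap between groups.

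THSD7B (NM_001316349, chromosome 2, 136765545 to 137677718), the paralog of THSD7A, went the other way. Its base mean is 282 and it rose by 5.34 on the log2 scale (SE 0.25, adjusted p = 8.41e-99) by the authors' deposited table. Only 3 of 10303 tested accessions rose more. The implied levels are 13.6 normalized reads in an EGFR+vIII library and 551 in a knockout library, a 40.6-fold difference. Per kilobase this is 2.22 and 90.2, so the implied level of THSD7B passes from below that of THSD4 in EGFR+vIII (15.8) to above it in the knockout (6.37). In the knockout it stays below THBS2 (112).

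CD47 (NM_001777, chromosome 3, 108043091 to 108091031) stands in the authors' deposited table at a log2 fold change of 0.05, with an SE of 0.37 and an adjusted p of 0.951. Its base mean of 6.66 comes from 41 whole reads. EGFR+vIII libraries held 9, 3 and 8 reads and knockout libraries held 13, 4 and 4. The means are 6.37 ± 3.06 (SD, n = 3) and 6.95 ± 4.68 (SD, n = 3) normalized reads, and the groups overlap. The interval of the deposited fold change, -0.67 to 0.78, leaves room for a change in either direction, and no difference was detected. That fold change was drawn towards 0. The ratio of the whole reads is 0.13 on the log2 scale. Its 95% exact Clopper-Pearson interval is wider, -0.83 to 1.09, for counting error only. CD47 has 2 accessions, and the other is at 0. By the paired GENCODE transcripts, the counted accession has 58 of 1285 exon bases (4.51%) to itself, and the one at 0 has 3998 of 5225 (76.5%). In the authors' deposited table, the median base mean of tested protein-coding genes is 714 with 1 accession and 34.4 with 2 accessions, and how far reads shared by isoforms lower the count of CD47 was not tested.

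Few reads are listed for the pentameric thrombospondins. THBS4, a matrix protein of tendon, muscle and reactive astrocytes, has 4 accessions, of which 1 has a base mean of 1.52 in the authors' deposited table. Its 9 reads were 1, 0 and 3 in EGFR+vIII libraries and 0, 5 and 0 in knockout libraries, so a single knockout library holds all reads of its group. The counted accession of THBS4 has 0 of 3094 exon bases to itself, and 3 of the 4 pair with the same GENCODE transcript. THBS3 has 4 accessions and 1 read in all, in a knockout library. Its accessions have at most 87 of their exon bases to themselves. THSD1, a membrane protein of endothelial cells, has 2 accessions, both at 0, with 159 and 386 bases of their own. For THBS3, THBS4 and THSD1 a level near 0 therefore does not show that the gene was silent. COMP, the cartilage oligomeric matrix protein, has 1 accession with all 2461 bases to itself and is at 0, so no read was counted for it. By counting error alone, this leaves room for an expected count of up to 3 reads over the 6 libraries.

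To see the called genes beside their surroundings on the chromosome, neighbours were taken. For each gene, the 20 nearest tested genes were taken, 10 on each side. The median log2 fold change of neighbours is -0.10 at THBS1, -0.13 at THSD4, -0.25 at THSD7A and 0.08 at THSD7B in the authors' deposited table. Around THBS2, near the end of chromosome 6, the 14 neighbours have a median of 0.43, opposite in sign to THBS2. Relative to these medians, the log2 fold changes are -0.65 (THBS1), -1.88 (THBS2), -1.18 (THSD4), -2.31 (THSD7A) and 5.27 (THSD7B), and all 5 keep an adjusted p under 0.05. HNMT, a tested gene near THSD7B, has a log2 value of 0.05 (SE 0.11) from the authors' deposited table. THBS2-AS1, which overlaps THBS2, stands in the authors' deposited table at a base mean of 18.3 and a log2 value of 0.50 (SE 0.37, adjusted p = 0.389). Whether reads were counted by strand is not given in the sources used here, so reads of THBS2 and THBS2-AS1 may not be told apart.

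**Figure D3:**
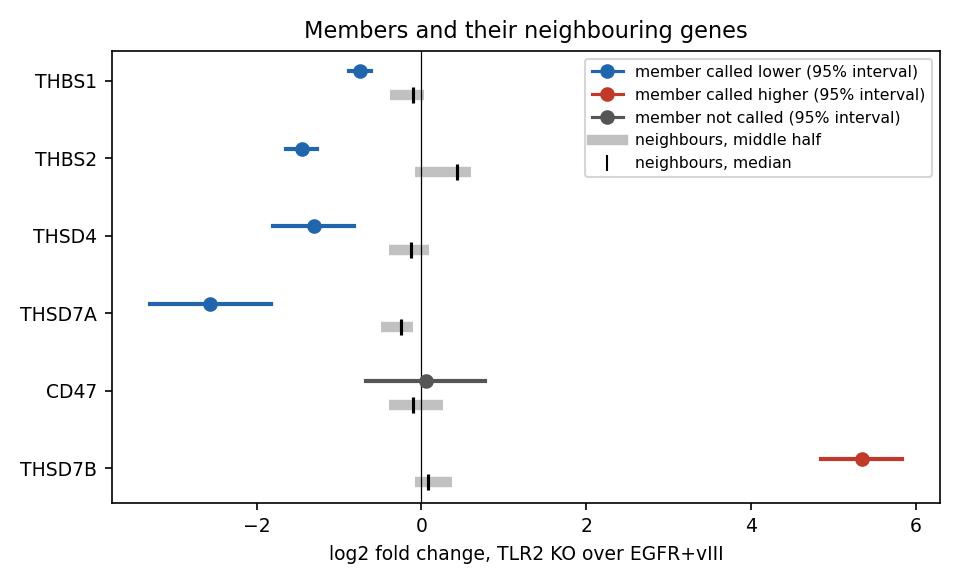
Log2 fold change (TLR2 KO over EGFR+vIII) of the 6 tested thrombospondin genes with 95% intervals, beside the median and interquartile range of up to 20 neighbouring tested genes (grey bars). Each of the 5 called genes lies outside the grey bar of its neighbours, and CD47 lies inside it.

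Among genes with a base mean within 2-fold, those with the log2 fold change nearest to THBS1 in the authors' deposited table are ENO2 (-0.75, a glycolytic enzyme) and COL1A1 (-0.76, a chain of type I collagen). Nearest to THBS2 are PLXNA4 (-1.46), a semaphorin co-receptor, and SLITRK5 (-1.44), a neuronal membrane protein. THSD4 is next to MYOZ2 (-1.30), and THSD7A, with CACNG7 (-2.27) as its nearest, has no neighbour in fold change closer than 0.30. THSD7B lies between PDGFRL (5.58) and SERPINB3 (5.05) in the authors' deposited table. Likeness here is over 1 comparison only.

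Other genes of type 1 repeat proteins were looked at in the same comparison. Of 53 such genes in the table besides the 10, 21 were tested, and 12 fell, 3 rose and 6 did not pass in the authors' deposited table, beside 23.5% called and 11.9% called lower over all tested accessions. Their median log2 fold change is -0.56. The 4 falls of greatest size were those of ADAMTS5 (-2.36, SE 0.11), an aggrecan-cleaving protease, SEMA5A (-2.06, SE 0.09), a semaphorin, UNC5C (-1.80, SE 0.38), a netrin receptor, and ADAMTS7 (-1.68, SE 0.33), a protease known to cleave COMP, with log2 fold changes from the authors' deposited table. The rises were those of ADAMTS20 (1.62, SE 0.38), the Wnt agonist RSPO3 (1.33, SE 0.26) and the adhesion receptor ADGRB3 (0.97, SE 0.34) in the authors' deposited table. ADGRB3 had no read in any EGFR+vIII library and 5, 6 and 17 reads in the knockout libraries. A further 22 of the 53 are listed at 0, and 21 of these have more than 1 accession.

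**Figure D4:**
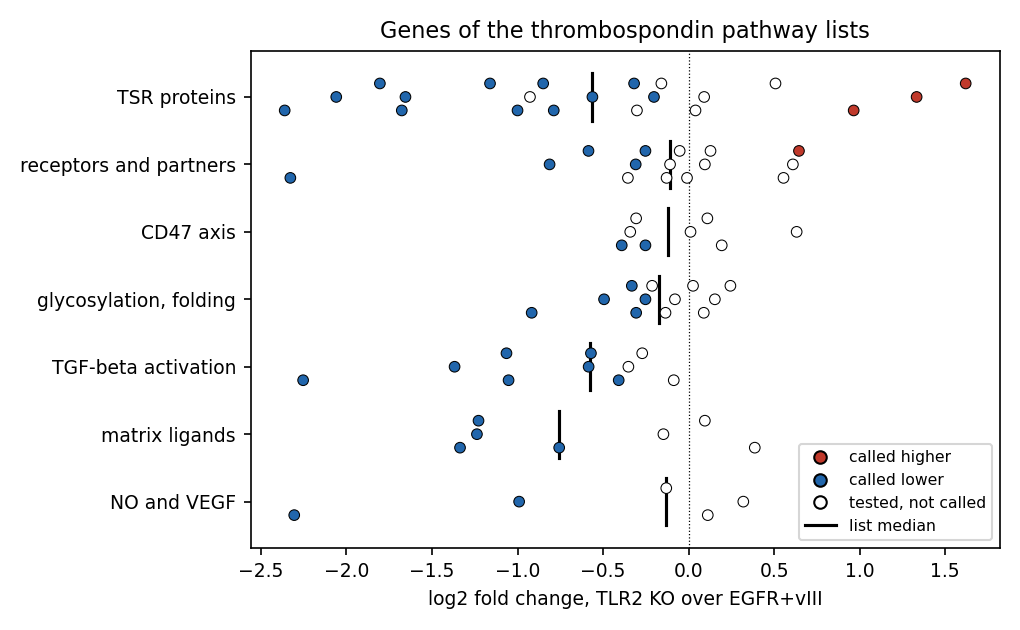
Log2 fold change (TLR2 KO over EGFR+vIII) of each tested gene in 7 lists around thrombospondin function, filled blue where called lower, red where called higher and white where not called; black lines are list medians. The medians run from -0.76 (matrix ligands) to -0.11 (receptors and partners).

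Among thrombospondin receptors and binding partners, the authors' deposited table has 5 falls and 1 rise over 15 tested genes, beside 23.5% called over all accessions, with a median of -0.11. ITGA4, an integrin chain that binds THBS1, is at -2.33 (SE 0.11), ITGA5, of the fibronectin receptor, at -0.81 (SE 0.08) and the endocytic receptor LRP1 at -0.31 (SE 0.09) in log2 units of the authors' deposited table, and all 3 passed. SDC4, a heparan sulfate proteoglycan, rose by 0.65 (SE 0.08), as given by the authors' deposited table. ITGB5 (-0.59, SE 0.23, adjusted p = 0.0462) and CALR (-0.25, SE 0.07) also passed, and ITGB3 (0.13, SE 0.08) and ITGA3 (-0.05, SE 0.07) did not, in the authors' deposited table. CD36, the receptor of the type 1 repeats, has 9 accessions and a highest base mean of 1.13. Its 7 reads, 5 in 1 EGFR+vIII library and 2 in 1 knockout library, allow no comparison.

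For CD47 itself, the authors' deposited table has 2 falls and 0 rises over 8 tested genes of its axis, with a median of -0.12. This share, 25%, is near the 23.5% called over all tested accessions and is no result about the axis. They are CALR, which is also known as an eat-me signal on the cell surface, and BNIP3 (-0.39, SE 0.08), a mitochondrial protein that binds CD47. SIRPA, the phagocyte receptor of CD47, stands in the authors' deposited table at -0.31 on the log2 scale, with an SE of 0.34 and an adjusted p of 0.608. It is from 2, 8 and 10 reads against 0, 2 and 6. These are the reads of 1 of 4 listed isoforms, at a base mean of 4.60, and may not be the level of the gene. QPCTL, whose enzyme modifies CD47 so that SIRPA binds it, is at -0.34 (SE 0.21, adjusted p = 0.274) by the authors' deposited table.

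Among enzymes and chaperones that glycosylate and fold thrombospondins, the authors' deposited table has 5 falls and 0 rises over 12 tested genes, beside 11.9% lower over all tested accessions, with a median log2 fold change of -0.17. DPY19L4 (-0.49, SE 0.08), a relative of the tryptophan mannosyltransferase of type 1 repeats, PDIA3 (-0.33, SE 0.07) and HSPA5 (-0.31, SE 0.08), both of the endoplasmic reticulum, fell in the authors' deposited table, and so did DPY19L1 (-0.92, SE 0.31) and CALR. POFUT2 (0.24, SE 0.37) and B3GLCT (-0.21, SE 0.11), which add fucose and glucose to the repeats, did not pass in the authors' deposited table.

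Genes of TGF-beta activation, the process in which THBS1 acts, had 7 falls and 0 rises over 10 tested in the authors' deposited table, with a median of -0.58, beside 23.5% called and 11.9% called lower over all tested accessions. The integrin chain ITGB8 is at -2.25 (SE 0.11), LTBP1, which tethers latent TGF-beta, at -1.37 (SE 0.37), the protease MMP2 at -1.06 (SE 0.24) and the fibrillin FBN1 at -1.05 (SE 0.07) in log2 units of the authors' deposited table. TGFB1 itself fell by 0.58 (SE 0.13) in the authors' deposited table. Among matrix ligands of COMP and the thrombospondins, the authors' deposited table has 4 falls and 0 rises over 7 tested genes, beside the same 11.9% lower, with a median of -0.76. They are MATN3 (-1.34, SE 0.29), COL14A1 (-1.24, SE 0.38), COL1A2 (-1.23, SE 0.07) and COL1A1 (-0.76, SE 0.09) in the authors' deposited table. Of 5 tested genes of NO and VEGF signalling, which THBS1 is known to counter, the authors' deposited table has 2 falls and 0 rises, beside the same 11.9% lower, with HGF at -2.31 (SE 0.18) and PRKG1, a kinase of the NO pathway, at -0.99 (SE 0.36). VEGFB (0.32, SE 0.33), VEGFC (0.11, SE 0.08) and the receptor KDR (-0.13, SE 0.13) did not pass in the authors' deposited table. VEGFA, with 20 accessions, is listed at 0, which does not show that it was silent. CALR, ITGAV and FN1 stand in more than 1 list, so the lists are not independent of each other.

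Of the markers of the cell line, all 7 fixed for U87 and mesenchymal glioma were tested, and VIM, TNC and TIMP1 stand at base means of 126476, 90343 and 3784, taken from the authors' deposited table. Of the 7, CHI3L1 (3.01, SE 0.24) and NES (1.01, SE 0.12) were called higher and VIM (-0.29, SE 0.08) lower, with log2 fold changes from the authors' deposited table. Over all tested accessions, 11.6% were called higher and 11.9% lower. GFAP, the astrocyte filament, is listed at 0, as are 4 of 5 astrocyte markers and 4 of 5 of oligodendrocytes. So are 3 of 5 of neurons, 4 of 6 of leucocytes and 3 of 5 of platelets. GFAP has 4 accessions, MOG 10 and SNAP25 11, and markers of this kind may be expressed in spite of their zeros. S100B, OLIG1 and SOX10 are at 0 with 1 accession each. OLIG2 (oligodendrocytes), TUBB3 (neurons) and CD68 (leucocytes) have reads, at base means of 51.6, 80.8 and 42.6. Whether such cell types have a part in the results was not tested. Of 6 fibroblast markers, which overlap with the matrix genes above, 2 of 5 tested fell, beside the same 11.9% lower. They are LUM (-1.71, SE 0.12) and COL1A1 in the authors' deposited table. PF4 (2 accessions) and PPBP (1 accession), which mark platelets, a rich source of THBS1, are at 0. PTPRC (4 accessions), which marks leucocytes, is also at 0. The endothelial markers CDH5, TEK and CLDN5 stand in the authors' deposited table at base means of at most 0.539, VWF at 13.5 and PECAM1 at 159 (log2 fold change 0.49, SE 0.22, adjusted p = 0.0981).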

How the data were processed

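RNA sequencing of 6 U87 libraries, 3 per group by the cell type in the labels, was available as 1 deposited table of 67933 RefSeq accessions. The submitters' processing notes list STAR, DESeq2 and hg38, with versions, counter and strandedness not given in the sources used here. Per the file headers, the authors deposited a base mean (a signal, the mean of size-factor-normalized reads), a log2 fold change with its standard error, a Wald score, a p-value and an adjusted p. The deposited log2 fold changes were drawn towards 0, so changes of genes with few reads are understated. The table gave 18109 accessions a p-value and 10303 an adjusted p, the lowest at a base mean of 3.11, and 49824 were listed at 0. The edgeR test planned for counts per library could not be run, and the deposited DESeq2 values were used as they stand.

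Accessions were matched to a RefSeq table of GRCh38.p14 (98.8% matched), and transcript lengths and exons came from GENCODE 29, also GRCh38. Whole reads per library were solved from base means (tolerance 1e-09, and 5.5e-09 above a base mean of 10), with size factors refined on 2015 base means. Which labelled library holds which reads is not known, only its group. The group was assigned by the sign of the deposited fold changes of accessions with a single read. Levels per group were implied from base mean and fold change. Scripts (Python 3.11.15, pandas 2.3.3, scipy 1.17.1) were tested on simulated data. The genes and lists were chosen with earlier results of these data known. Genes named are all 10 members, up to 4 called rises and 4 falls per list, nearest genes by position and by fold change, and partners; others named were chosen after their values were seen.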

Additional observations from a re-analysis of the deposited data

How the results depend on the processing

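The 5 calls among the thrombospondin genes were kept when p-values were adjusted over every accession with one, with fold changes centred, and relative to neighbours. They were also kept with Wald scores centred on their median and divided by their central spread of 1.75. With a base mean of at least 100 only, 4 were called, as THSD7A is not in that set. When the null was widened to 1.5-fold either way, 3 were called (THBS2, THSD7A and THSD7B). That test called 408 accessions in the whole table (3.96%) in place of 2417, and 12 in place of 43 genes of the 8 lists. With scaled Wald scores, 893 accessions and 23 list genes were called, the accessions split into 384 higher and 509 lower in place of 1191 and 1226. Centring subtracts the median log2 fold change of 0.02 from every value, which lowers all of them, and gave 1110 higher and 1288 lower. Why the Wald scores have a central spread of 1.75 was not tested. No direction of a tested thrombospondin gene was reversed by centring or relative to neighbours. The other planned settings kept the deposited fold changes as they stand, so they could not reverse a direction. The ratio of recovered reads, an alternative added after seeing the data, kept the direction of CD47 (0.13 on the log2 scale). Recovered reads were placed in groups by the sign of deposited fold changes, so they are no separate check of the direction of the comparison. For THSD7A the split of reads was chosen with the deposited fold change, so its ratio is no check of direction. Only 1 accession per member carries a p-value, so averaging over accessions changed nothing. The eighth list, of genes near the members, had 1 of 12 tested higher and 3 lower, beside 11.6% and 11.9% over all tested accessions. FAM20A and CRTAC1 in it lie on other chromosomes. No paired analysis was possible because the table has no value per library, and leaving out replicates was not possible for the same reason. Reads limit CD47, THBS3 and THBS4. At a listing of 0 no read was counted, and the 3 reads given for it bound the expected count over all libraries, for counting error only.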

Other observations

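The recovered reads give a view of low-read genes that the deposited fold changes do not. All 1525 tested accessions with a base mean under 6 have exactly 1 whole-number solution. In 630 of them both groups have reads and the groups differ at least 2-fold. The deposited log2 fold change is smaller than that of the reads in all 630, with a median ratio of 0.24 (interquartile range 0.20 to 0.28). The same solutions are uneven between groups: 55 accessions have no read in the EGFR+vIII libraries and 8 have none in the knockout libraries. ADGRB3, a relative of the thrombospondins by its type 1 repeats, is among the 55. The antisense gene THBS4-AS1, with 1 accession and no adjusted p, has 3, 3 and 4 reads in the EGFR+vIII libraries and 0, 0 and 1 in the knockout libraries, and its deposited log2 fold change is -0.35 (SE 0.27). THBS4-AS1 was picked after its reads were seen, and no test was run on them.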
